A study of Mus musculus with 3 samples.

Results

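The genes described here make, load and regulate MHC class I molecules: the heavy chains *H2-K1*, *H2-D1* and *H2-T23*, the light chain *B2m*, the peptide transporter genes *Tap1* and *Tap2*, the loading factor *Tapbp*, the trimming enzyme *Erap1* and the transactivator *Nlrc5*. They were chosen by name as the genes of class I antigen presentation. All 9 were found among the 25759 genes of each table, and all 9 were among the 7017 genes taken as expressed, meaning that RPKM exceeded 5 in 1 or more of the libraries. RPKM divides the exon reads of a gene by its exon length and by the size of the library, so levels of different genes can be set side by side. Between libraries it still depends on how they are scaled, as given below with the ratios.

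Follicular regulatory T (TFR) cells were sorted as B220-CD4+GFP(Blimp)+CXCR5+GITRhi cells from spleen and mLN of mice given 125 µg NP-KLH in alum, boosted on day 7 and sorted on day 10. The library called N comes from Nfatc1fl/fl.Prdm1gfp/+.FIC mice and is labelled NFATc1-deficient. The αA library comes from Nfatc1caaA.Prdm1gfp/+.FIC mice, which express a constitutively active NFATc1/αA, and the PαA library from Nfatc1caaA.Prdm1gfp/fl.FIC mice, in which Blimp-1, the product of *Prdm1*, is targeted as well. FIC is a Cre recombinase made from the *Foxp3* locus, and the study's own reporter mice showed it to be active in some conventional T cells too. All 3 genotypes carry FIC and a Prdm1 gfp allele, and no library of mice without an *Nfatc1* change was among them. The age of the mice and the number behind each library are not given in the sources used here. With 1 library for each genotype there is no spread between mice, no test was made, and every ratio below compares libraries rather than genotypes.

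Class I molecules show peptides from inside the cell to CD8 T cells and NK cells. Peptides cut by the proteasome are pumped into the endoplasmic reticulum by the TAP transporter, trimmed by Erap1 and loaded with the help of tapasin onto a heavy chain paired with β2-microglobulin. NLRC5 is a coactivator that acts at the promoters of most of these genes, together with factors bound to conserved promoter boxes, and interferons raise the whole set. Nearly all nucleated cells, regulatory T cells included, express class I, so RNA of other cells in a sort would add to these counts.

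The promoter sequences of the most abundant heavy chain and of the light chain are shown because they carry the boxes at which this regulation is known to take place. RefSeq windows from 250 bases before to 50 after a gene's start, in GRCm38.p6, were matched by symbol for 7 of the 9 genes, in 8 windows. *Tap2* and *Nlrc5* had no window. The stretch before the *H2-K1* start lies on the minus strand at chr17:34000348-34000597 and the one before the *B2m* start on the plus strand at chr2:122147437-122147685, and neither overlaps an annotated exon. In the first, the runs of capitals mark, in order, an NF-κB motif (κB), the interferon-type element of class I heavy chains, TGACG, the core bound by CREB and ATF factors, and ATTGG, which is CCAAT on the other strand and is bound by NF-Y. In the second, capitals mark an interferon-response motif, which is GAAA repeated after any 2 bases, and again TGACG and ATTGG.
H2-K1 upstream: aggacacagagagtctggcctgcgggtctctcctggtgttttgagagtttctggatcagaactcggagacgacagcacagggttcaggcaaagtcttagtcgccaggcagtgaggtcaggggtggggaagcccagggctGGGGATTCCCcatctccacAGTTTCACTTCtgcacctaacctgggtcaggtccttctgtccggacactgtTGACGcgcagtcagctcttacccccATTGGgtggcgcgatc
B2m upstream: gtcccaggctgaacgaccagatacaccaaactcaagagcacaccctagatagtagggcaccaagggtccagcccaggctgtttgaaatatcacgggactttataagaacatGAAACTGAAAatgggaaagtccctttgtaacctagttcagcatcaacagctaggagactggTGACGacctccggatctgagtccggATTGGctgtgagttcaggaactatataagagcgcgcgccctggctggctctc

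*H2-D1* holds the same pair of motifs as *H2-K1*, at the same spacing. The shared element starts 111 bases before the RefSeq start of *H2-K1* used above, or 125 before its other RefSeq start. For *H2-D1* it starts 171 bases before the RefSeq start. The gene span given below for *H2-D1* begins further upstream, so the element lies inside that span. The element is printed for both genes so that they can be compared letter by letter. The stretches are chr17:34000429-34000458 on the minus strand and chr17:35262923-35262952 on the plus strand, the latter inside an annotated exon.
H2-K1 element: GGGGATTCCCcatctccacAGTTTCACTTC
H2-D1 element: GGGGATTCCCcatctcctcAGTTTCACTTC

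Matches were sought on both strands of all 32851 windows. The κB motif printed above was present in 0.107% of them and the heavy chain interferon element in 0.0517%, and among the class I genes each was found in *H2-K1* and *H2-D1*. The heavy chain interferon element and TGACG were added to the search after the windows had been seen. Another form of the κB motif (0.0852% of windows) overlaps it on the opposite strand in both genes, and a symmetric form (0.0396%) had no match in the class I genes. TGACG was found in 4 of the 7 genes (*B2m*, *H2-D1*, *H2-K1* and *Tap1*) and in 20.8% of all windows, CCAAT in 6 of the 7 and in 37.4%, while TGACGTCA (1.79%) and TGACGCA (2.12%) had no match in any of the 7.

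AGNGAAAG, the core motif bound by Blimp-1, was found in *Erap1* and *H2-T23* and in 8.63% of all windows. In both genes it overlaps a match to the interferon-response motif (3.44% of all windows), so the same letters match an interferon-response motif. The NFAT core TGGAAA was found in *H2-T23* and *Tap1* and in 21.4% of all windows. The stretches with the overlapping motifs are shown because the Prdm1 allele is what differs between αA and PαA. They lie at chr13:74639840-74639863 on the plus strand and at chr17:36032811-36032834 on the minus strand, both inside annotated exons, and capitals mark the motifs, which run on the opposite strand.
Erap1 element: caccttcaCTTTCACTTTCggtcc
H2-T23 element: tcctactgCTTTCTCTTTCataaa
These matches describe letters in a window and do not show that a factor was bound.

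The numbers of exon reads were 27637953 (N), 24258845 (αA) and 23269443 (PαA). The targeted genes were counted first. *Nfatc1* stood at 63.6 RPKM in N, 62.9 in αA and 32.4 in PαA, so the library labelled NFATc1-deficient was not below the ones labelled overexpressing, although a total over all exons cannot show whether a floxed part is missing. *Prdm1* stood at 25.6, 24.9 and 10.0 RPKM. The sort markers *Cd4* (488, 396 and 341 RPKM), *Cxcr5* (48.3, 81.3 and 47.6) and *Tnfrsf18*, the gene for GITR (303, 217 and 145), were present in all 3 libraries. So were *Cd3e* (462, 518 and 377) and *Foxp3* (32.7, 20.9 and 15.3), whose proteins were not used in the sort. Among markers of other cells, the 4 haemoglobin genes summed to 569, 2395 and 2143 RPKM in N, αA and PαA, the 3 plasma cell genes to 49.0, 66.1 and 108, the 5 myeloid genes to 250, 146 and 214, and the 6 B-cell genes to 16.0, 12.9 and 14.6. The sums were 3.16, 2.41 and 4.05 for 5 dendritic cell genes, 9.27, 14.1 and 8.14 for *Cd8a* and *Cd8b1*, and 3.18, 4.59 and 6.16 for *Ncr1* and *Klrb1c* of NK cells. The myeloid gene *S100a9* was the only marker without a read, in αA. The part of other cells in the class I values was not tested.

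From *Nlrc5* to *B2m* the level differed 564-fold in N, 1045-fold in αA and 1192-fold in PαA, and the 9 genes kept the same order in all 3 libraries. Together they took 1.86%, 1.82% and 1.65% of all exon reads of N, αA and PαA. *B2m*, the invariant light chain shared by all class I molecules, ranked 5th, 7th and 8th of all genes by RPKM. *H2-K1*, a classical heavy chain, ranked 16th, 22nd and 39th, and *H2-D1*, the other classical heavy chain of this strain, 42nd, 55th and 74th. Behind them came *H2-T23*, then *Tapbp*, *Tap1*, *Tap2*, *Erap1* and last *Nlrc5*. Neighbours in this order were set apart by more than their counting intervals in each library.

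**Figure D1:**
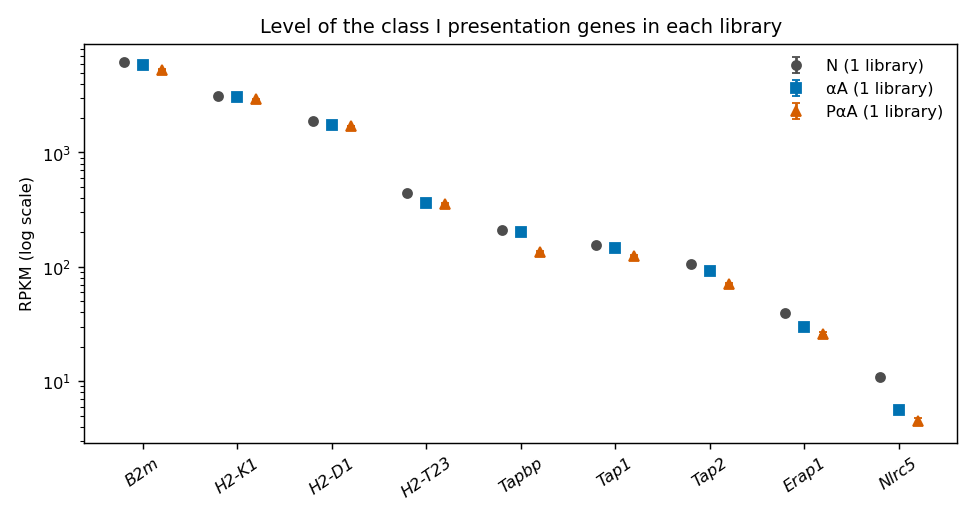
RPKM (log axis) of the 9 genes in the N, αA and PαA libraries, 1 point per library with a 95% Poisson interval that is mostly smaller than the point. *B2m* lies highest, at 5312 to 6142 RPKM, and *Nlrc5* lowest, at 4.45 to 10.9 RPKM, in the same order in each library.

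Ratios between libraries are given as log2 ratios of RPKM with a 95% interval (exact Clopper-Pearson, on the share of both libraries' reads that fell in the first). No molecular identifiers marked PCR copies, so the intervals cover counting error only. The median log2 ratio of the 7017 expressed genes was not 0. It was -0.14 for αA against N, -0.06 for PαA against αA and -0.19 for PαA against N, while with TMM scaling, which aligns the bulk of genes, it was 0.02, 0.01 and 0.04. Class I ratios are therefore also given relative to this median or with TMM factors. In sorted bulk RNA, fewer cells that express a gene and less of its RNA per cell cannot be told apart.

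*H2-K1* (ENSMUSG00000061232, chr17:33996017-34000333) had 159037, 140617 and 126433 exon reads in N, αA and PαA, or 3145, 3035 and 2919 RPKM. The 3 libraries lay close together, with PαA at 0.928 times N. Its log2 ratio was -0.05 for αA against N (-0.06 to -0.04) and -0.11 for PαA against N (-0.12 to -0.10), which is 0.09 and 0.08 above the median of all genes. *H2-D1* (ENSMUSG00000073411, chr17:35262730-35267499) stood at 1896, 1750 and 1710 RPKM, and its log2 ratio was -0.12 for αA against N (-0.13 to -0.10) and -0.15 for PαA against N (-0.16 to -0.14). Both genes came out slightly lower than N by RPKM and slightly higher with TMM factors, at 0.12 for *H2-K1* and 0.08 for *H2-D1* in PαA against N, so no direction can be given. Within a library *H2-K1* stood at 1.66, 1.73 and 1.71 times *H2-D1*.

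*B2m* (ENSMUSG00000060802, chr2:122147686-122153083) stood at 6142 RPKM in N, 5849 in αA and 5312 in PαA. Its log2 ratio was -0.07 for αA against N (-0.08 to -0.06), -0.14 for PαA against αA (-0.15 to -0.13) and -0.21 for PαA against N (-0.22 to -0.20), the last being 0.02 below the median of all genes and 0.02 above 0 with TMM factors. Set against the sum of both classical heavy chains, *B2m* stood at 1.22 times in N, 1.22 in αA and 1.15 in PαA.

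*H2-T23* (ENSMUSG00000067212, chr17:36029773-36032855) encodes Qa-1, a non-classical heavy chain that shows leader peptides of other class I molecules to NKG2 receptors. It stood at 439 RPKM in N, 362 in αA and 352 in PαA, so that αA and PαA lay together below N. The log2 ratio was -0.28 for αA against N (-0.31 to -0.25) and -0.32 for PαA against N (-0.35 to -0.28), and it remained below 0 with TMM factors, at -0.12 and -0.09. Between PαA and αA it was -0.04 (-0.07 to -0.00) and turned to 0.03 with TMM factors.

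*Tap1* and *Tap2* encode the chains of the peptide transporter. *Tap1* (ENSMUSG00000037321, chr17:34187553-34197225) stood at 154, 147 and 123 RPKM in N, αA and PαA. *Tap2* (ENSMUSG00000024339, chr17:34203527-34216321) stood at 107, 91.8 and 70.5 RPKM. For both genes PαA was the lowest library. The log2 ratio of *Tap1* was -0.07 for αA against N (-0.10 to -0.03), which became 0.09 with TMM factors, and -0.25 for PαA against αA (-0.29 to -0.21), which stayed below 0 at -0.19. For PαA against N it was -0.32 (-0.36 to -0.28), or -0.09 with TMM factors. That of *Tap2* was -0.22 (-0.26 to -0.18), -0.38 (-0.43 to -0.33) and, for PαA against N, -0.60 (-0.64 to -0.55), and with TMM factors these came to -0.06, -0.31 and -0.37. The ratio of *Tap1* to *Tap2* within a library was 1.44 in N, 1.60 in αA and 1.75 in PαA.

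*Tapbp* (ENSMUSG00000024308, chr17:33915899-33929288) encodes tapasin, which bridges the transporter and the empty heavy chain. It had 18488, 16146 and 10183 exon reads, or 210, 200 and 135 RPKM. N and αA lay close together and PαA below them. The log2 ratio of PαA against αA was -0.57 (-0.60 to -0.53), the lowest of the 9 genes in this comparison, and -0.50 with TMM factors, whereas that of αA against N was -0.07 (-0.10 to -0.04) and 0.09 with TMM factors. Within a library *Tapbp* stood at 1.36 times *Tap1* in N and in αA and at 1.09 times in PαA, and *H2-K1* stood at 15.0, 15.2 and 21.6 times *Tapbp*.

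*Erap1* (ENSMUSG00000021583, chr13:74639568-74693201) encodes the aminopeptidase that trims peptides in the endoplasmic reticulum. It stood at 39.1, 29.6 and 26.1 RPKM in N, αA and PαA, in falling order. Its log2 ratio was -0.40 for αA against N (-0.46 to -0.35), -0.18 for PαA against αA (-0.24 to -0.12) and -0.58 for PαA against N (-0.64 to -0.52), and all 3 stayed below 0 with TMM factors (-0.24, -0.11 and -0.35). Set against genes of like exon length, the ratio of PαA against αA came to 0.04 instead.

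*Nlrc5* (ENSMUSG00000074151, chr8:94434356-94527272), the class I transactivator, varied most. It had 2644, 1245 and 926 exon reads in N, αA and PαA, or 10.9, 5.60 and 4.45 RPKM. N was the highest library by a wide margin and PαA the lowest. The log2 ratio was -0.96 for αA against N (-1.06 to -0.86), -0.33 for PαA against αA (-0.45 to -0.21) and -1.29 for PαA against N (-1.40 to -1.18), and with TMM factors -0.80, -0.26 and -1.06. *H2-K1* stood at 289 times the level of *Nlrc5* in N, 542 times in αA and 655 times in PαA.

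**Figure D2:**
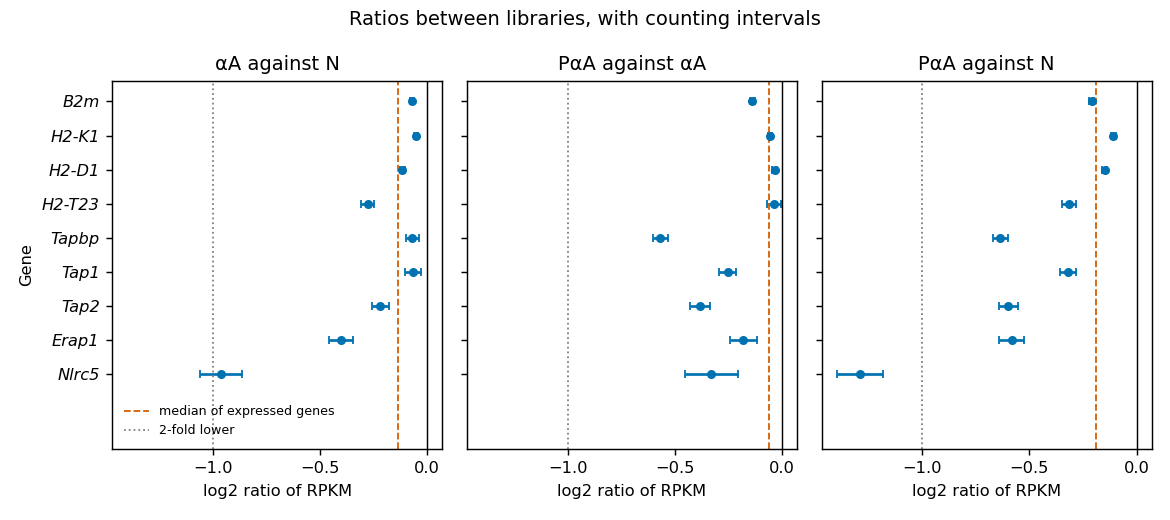
log2 ratio of RPKM of the 9 genes in the 3 comparisons, with 95% counting intervals, the median of the 7017 expressed genes (dashed) and the 2-fold line (dotted). *Nlrc5* lies past the 2-fold line in PαA against N at -1.29, and *Tapbp* lies lowest in PαA against αA at -0.57.

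Counted over the set, 0 of the 9 genes differed by more than 2-fold between αA and N, where 4.25% of the 7017 expressed genes did. Between PαA and αA it was again 0 of 9, with 4.63% of all genes. Between PαA and N it was 1 of 9, *Nlrc5*, with 10.3% of all genes past 2-fold in either direction and 7.77% lower. Past 1.5-fold, 1 gene (*Nlrc5*) was lower in αA than in N (11.0% of all genes), 0 in PαA against αA (9.19%) and 3 (*Nlrc5*, *Tapbp* and *Tap2*) in PαA than in N (22.3%). With TMM factors the last count was 1, as *Tapbp* (-0.41) and *Tap2* (-0.37) came inside that fold. *Erap1*, at 1.497-fold lower, and *Tap2*, at 1.515-fold, lay on either side of that line. No member was higher past either fold, where 1.44%, 2.18% and 2.57% of all genes were in the 3 comparisons past 2-fold and 3.12%, 5.53% and 5.67% past 1.5-fold. The median log2 ratio of the 9 genes was -0.12 for αA against N, -0.18 for PαA against αA and -0.32 for PαA against N, beside -0.14, -0.06 and -0.19 for all expressed genes. All 3 comparisons share libraries, so these values are not independent of each other.

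Ratios in these libraries varied with exon length. Among the expressed genes, the 1404 shortest (exon lengths of 201 to 1676 bases) had a median log2 ratio of 0.14 in PαA against N, and the 1404 longest (4874 to 19341 bases) a median of -0.55. In αA against N these medians were -0.02 and -0.29. *Nlrc5*, with 8163 bases of exon, and *Erap1*, with 5688, are the longest of the 9 genes and *B2m*, with 860, is the shortest. Each gene was therefore also set against the 500 expressed genes nearest to it in exon length, a step added after the data had been seen.

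The 500 genes nearest to *Nlrc5* had a median log2 ratio of -0.36 in αA against N and -0.64 in PαA against N, and *Nlrc5* lay 0.60 and 0.65 below them on the log2 scale (-0.60 and -0.65), so that in PαA against N it was no longer past 2-fold. *Erap1* lay at -0.09 from its neighbours in PαA against N. *B2m* lay at -0.42, as its short neighbours had a median of 0.21. *Tapbp* was at -0.46, *H2-T23* at -0.34, *Tap2* at -0.32 and *Tap1* at -0.15, while *H2-K1* and *H2-D1* were at -0.08 and -0.04. All 9 genes lay below the median of genes of their own length in PαA against N, and 6 of 9 did in αA against N. A median has as many genes below it as above, and the spread among the neighbours was not measured. For scale, the quartiles of all 7017 expressed genes were -0.54 and 0.11 in PαA against N and -0.34 and 0.06 in αA against N.

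**Figure D3:**
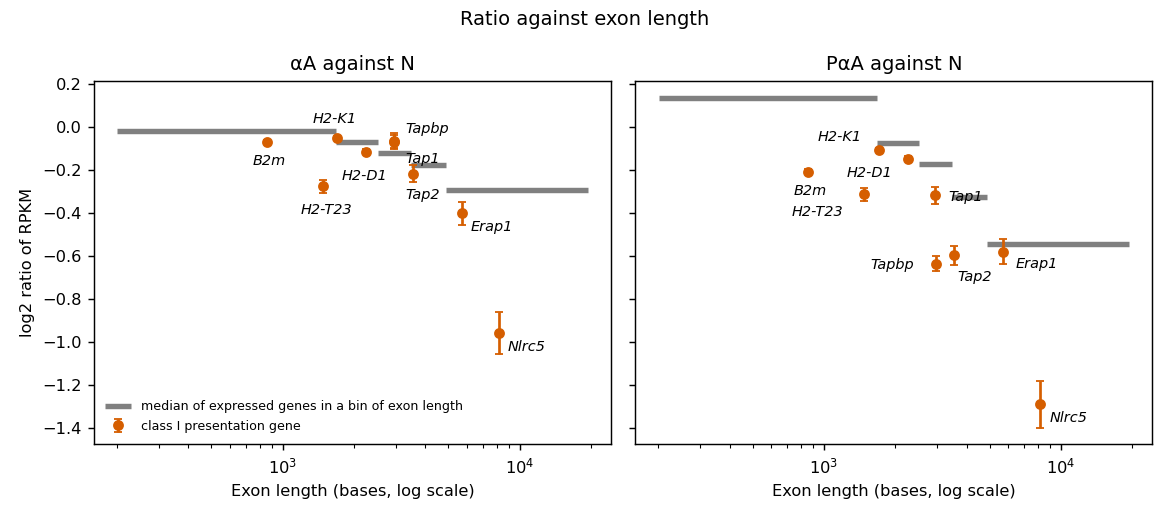
log2 ratio of RPKM against exon length (log axis) for the 9 genes (points, 95% counting intervals) and, as grey bars, the median of expressed genes in each of 5 bins of exon length. The grey medians run from -0.02 to -0.29 in αA against N and from 0.14 to -0.55 in PαA against N, and *Nlrc5* lies below the bar of the longest genes in both panels.

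Reads over introns and over exon-exon junctions are a second view of the same RNA. *Nlrc5* had 1002, 524 and 330 junction reads in N, αA and PαA, and their log2 ratio per library total was -0.81 for αA against N and -1.38 for PαA against N. Its intron reads numbered 410, 288 and 307, so that their ratios were -0.38 (-0.61 to -0.16) and -0.19 (-0.41 to 0.02). Exon and junction reads were thus lower than intron reads in ratio, and intron reads made up 13.4%, 18.8% and 24.9% of all *Nlrc5* gene reads. Over all genes that share was 3.62%, 5.30% and 3.91%, so αA had the highest share as a library and PαA the highest share for *Nlrc5*. The intron ratios given here were not adjusted for these library-wide shares, so a gap between exon and intron ratios need not be particular to *Nlrc5*.

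*Tapbp* had 3142, 2879 and 1668 junction reads, with a ratio of -0.69 for PαA against N, but 73, 32 and 104 intron reads, with a ratio of 0.73 (0.29 to 1.19). Few reads stand behind the latter. *B2m* had 333, 333 and 348 intron reads against 36834, 31327 and 26795 junction reads, and its intron ratio in PαA against N was 0.29 (0.07 to 0.51) beside -0.24 for junctions. *Tap2* had 3084, 2455 and 1514 junction reads and a junction ratio of -0.80 in PαA against N, lower than its exon ratio of -0.60.

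**Figure D4:**
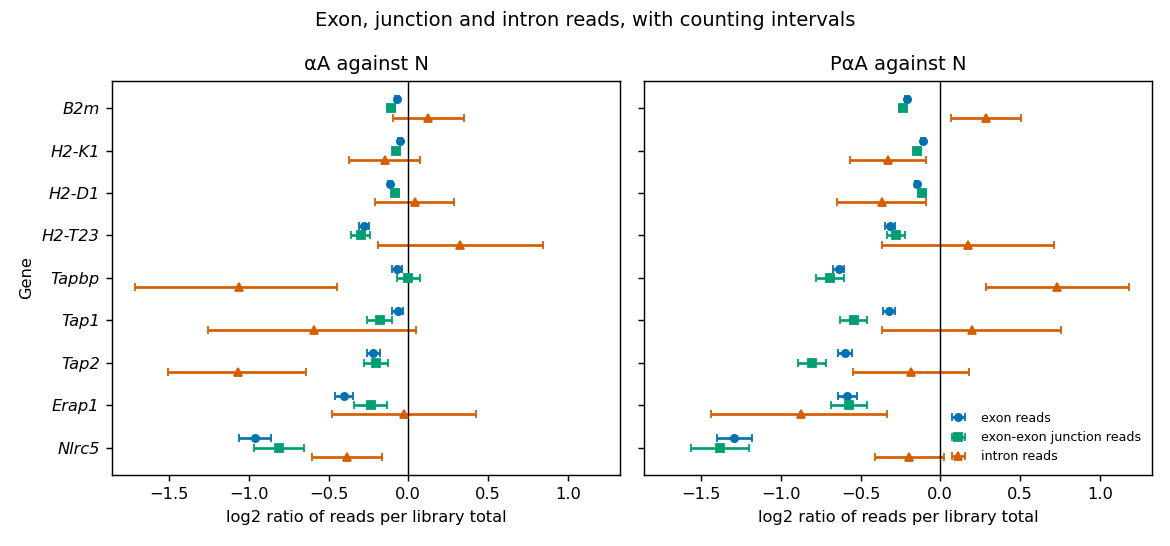
log2 ratio of exon reads, junction reads and intron reads per library total for the 9 genes, with 95% counting intervals, for αA and PαA against N. In PαA against N, *Nlrc5* stands at -1.29 for exons, -1.38 for junctions and -0.19 for introns, and *Tapbp* at -0.64, -0.69 and 0.73.

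Heavy chain genes resemble each other, and reads that fit several places were part of the total counts but not of the unique counts. The coding sequences of *H2-K1* and *H2-D1* were 91.5% identical, those of *H2-K1* and *H2-T23* 82.9%. The longest run of letters shared by *H2-K1* and *H2-D1* measures 91 bases, longer than a read of 59 bases. It is printed because a read inside it cannot be given to either gene. It encodes part of the third extracellular domain, at chr17:33997343-33997433 in *H2-K1* and chr17:35265911-35266001 in *H2-D1*, and the same run is found in *H2-Q7*.
Shared by H2-K1 and H2-D1: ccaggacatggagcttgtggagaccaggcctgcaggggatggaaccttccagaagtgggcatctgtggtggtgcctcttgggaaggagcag

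Of the 59-base windows of *H2-K1* transcripts, 96.8% were found in no other gene's transcripts, and 96.8% of its exon reads were unique in each library. For *H2-D1* the windows gave 90.5% and the reads 89.3% to 89.5%, and for *H2-T23* 77.2% and 82.8% to 84.3%. With unique reads alone, the log2 ratios in PαA against N were -0.11, -0.15 and -0.34 for these genes, beside -0.11, -0.15 and -0.32 from all reads.

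*B2m* was different, with 100% of its windows free of other transcripts but only 22.8% to 23.4% of its reads counted as unique. Its unique reads (36789, 31268 and 26742) were nearly all junction reads (36789, 31267 and 26739). The gene lies inside the span of *Patl2* on the other strand (chr2:122120108-122186189), which had 0, 0 and 12 exon reads. Use of strand in counting is not stated, and without it *B2m* reads could not be told apart from *Patl2* reads by position. Whether this overlap lies behind the low share of unique reads was not tested. *Nlrc5* had 100% unique reads and *Tap2* 79.0%, 78.4% and 76.5%, with *Gm15821* lying inside its span on the other strand. *Tap1* overlaps *Psmb9*, *Tapbp* overlaps *Zbtb22* and *Erap1* overlaps *Cast*, and 91.4% or more of the reads of these genes were unique.

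**Figure D5:**
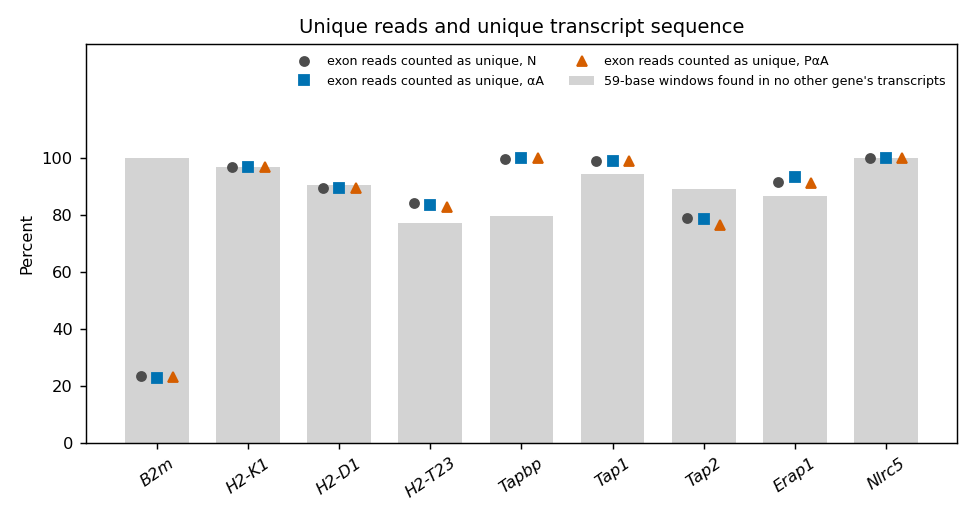
Percent of 59-base transcript windows found in no other gene (grey bars) and percent of exon reads counted as unique in N, αA and PαA (symbols) for the 9 genes. *B2m* stands apart with 100% of windows and 22.8% to 23.4% of reads, and *H2-K1* has 96.8% of each.

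Other genes of the pathway were read from fixed lists. Of 12 expressed class I and class I-like heavy chain genes, 0 differed by more than 2-fold in αA against N (4.25% of all genes did). In PαA against αA 2 were lower past 2-fold (2.45%). In PαA against N 1 was lower (7.77%) and 1 higher (2.57%). *H2-Q2*, a Qa-region gene, stood at 7.16, 12.4 and 4.07 RPKM in N, αA and PαA (log2 ratio -1.61 for PαA against αA). *Mr1*, which shows microbial vitamin metabolites to MAIT cells, stood at 6.94, 7.06 and 3.36 RPKM (-1.07 for PαA against αA and -1.05 for PαA against N, the latter -0.82 with TMM factors). *Fcgrt*, the heavy chain of the neonatal Fc receptor, was higher in PαA than in N, at 2.17, 3.77 and 5.49 RPKM (1.34). It exceeded 5 RPKM only in PαA, so it was counted as expressed through the library where it is high. The most abundant of the list, *H2-Q7* (696, 629 and 674 RPKM, with 67.8% to 69.3% unique reads) and *H2-T22* (188, 178 and 181, with 59.1% to 61.2%), had ratios of -0.05 each in PαA against N and of 0.18 each with TMM factors. *H2-Q8*, *H2-Q9* and *H2-T9* were not analysed here.

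Of 14 genes of peptide loading and trafficking, 0 passed 2-fold in any comparison (4.25%, 4.63% and 10.3% of all genes did), and 3 were lower past 1.5-fold in PαA against N, beside 22.3% of all genes. The chaperones *Calr* (478, 445 and 403 RPKM) and *Pdia3* (255, 244 and 219) are partners of tapasin in the loading complex and had log2 ratios of -0.25 and -0.22 in PαA against N, which were -0.02 and 0.01 with TMM factors. Of 15 expressed genes of peptide generation and trimming, 0 passed 2-fold in any comparison, beside 4.25%, 4.63% and 10.3% of all genes in αA against N, PαA against αA and PαA against N. The immunoproteasome subunit *Psmb8* stood at 347, 383 and 424 RPKM and the activator subunit *Psme2* (32.7% to 35.6% unique reads) at 300, 355 and 344, with log2 ratios of 0.29 and 0.20 in PαA against N. The median log2 ratio in that comparison was 0.04 for the 15 peptide generation genes and -0.25 for the 14 loading genes, beside -0.19 for all expressed genes. With TMM factors these medians were 0.27 and -0.02, and relative to genes of like exon length 0.03 and -0.06.

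Of 18 regulators (class I transactivators, their partners and the repressors *Ezh2* and *Trim28*), 0 passed 2-fold in αA against N (4.25% of all genes). In PαA against αA it was again 0 (4.63%), and in PαA against N 2 were lower past 2-fold, beside 7.77% of all genes. These were *Irf2*, a factor at interferon-response motifs, at 66.7, 48.8 and 32.5 RPKM (log2 ratio -1.04), and *Stat2*, at 12.1, 8.04 and 5.66 RPKM (-1.09), which with TMM factors came to -0.81 and -0.87. *Nfkb1*, an NF-κB subunit, stood at 88.0, 57.3 and 51.7 RPKM (-0.77 for PαA against N). The list's median was -0.18, -0.35 and -0.40 in the 3 comparisons, and for PαA against N it was -0.18 with TMM factors and -0.15 relative to genes of like exon length.

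Of 10 genes of interferon signalling (*Ifng*, receptor chains, kinases and the inhibitors *Socs1* and *Socs3*), 1 was lower past 2-fold in αA against N (2.81% of all genes). In PαA against αA 1 was higher (2.18%), and in PαA against N 2 were lower (7.77%). The 1 in αA against N was *Jak2*, a kinase of the interferon-γ receptor, at 34.3, 16.9 and 9.24 RPKM. Its log2 ratio was -1.02 for αA against N, which with TMM factors came to -0.86, and -1.89 for PαA against N. *Ifnar1*, a chain of the type I interferon receptor, stood at 19.4, 12.2 and 7.96 RPKM (-1.29 for PαA against N). *Ifngr1*, the ligand-binding chain for interferon-γ, went the other way at 86.7, 124 and 173 RPKM (0.99 for PαA against N). That is just inside 2-fold, and TMM factors, which raise all ratios of this comparison, take it past. *Ifngr2*, the 1 higher gene in PαA against αA, stood at 3.69, 2.44 and 5.01 RPKM (1.04). It exceeded 5 RPKM only in PαA, so it entered the expressed set through the library where it is high. *Jak1*, which serves both receptors, stood at 111, 78.5 and 70.9 RPKM. The list's median log2 ratio was -0.19, -0.15 and 0.12 in the 3 comparisons, and -0.03, -0.09 and 0.35 with TMM factors.

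The 5 genes whose pattern over the 3 libraries lay nearest to that of *Nlrc5*, among 5742 genes with an RPKM above 5 and at least 100 reads in each library, were *Pnn*, *Dnase2a*, *Ppp3ca*, *Numa1* and *Cd74*. Likeness was measured as the distance between centred log2 RPKM values, which was 0.05 for *Pnn* (13.5, 7.06 and 5.78 RPKM), 0.05 for *Dnase2a*, 0.08 for *Ppp3ca*, 0.09 for *Numa1* and 0.10 for *Cd74*, the invariant chain of MHC class II (325, 160 and 140 RPKM). With 3 libraries many genes can lie this near, and the distance is a description only.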

How the data were processed

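The members and gene lists were chosen with earlier results of these data known. Poly(A) RNA of TFR cells gave 3 libraries of 59-base single reads, 1 for each genotype, and grouped by the labels. The authors trimmed adapters and aligned and counted reads on GRCm38 in CLC Genomics Workbench at default settings. The annotation release is not given in the sources used here. The deposited counts (total and unique exon, junction, intron and gene reads) are not normalized, and the column named expression value equals the total exon reads. The deposited RPKM divides exon reads by exon length and library total, and the deposited TPM sums to 1000000 per library. Of 25759 genes, 3715 have an exon length of 0. Library totals recovered from RPKM were 29726219 (N), 27239921 (αA) and 25465829 (PαA).

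RPKM ratios were formed for αA against N, PαA against αA and PαA against N over genes whose RPKM exceeded 5 in any library, with 2-fold as the call. The study filtered on an expression value in place of RPKM, a name that the files give to exon reads, and applied its fold only to the first 2 of these comparisons. Intervals (95%) are exact Clopper-Pearson for ratios and Poisson for levels. They cover counting error only, and no p-value was computed. Named genes were the 9 members, the targeted genes, T-cell and sort markers and the 5 genes nearest to *Nlrc5*. From each list came the genes past 2-fold and the 2 most abundant. A gene that this rule names is not reported here. Alternatives were TPM, TMM factors (edgeR 4.0.16), median-of-ratios size factors (DESeq2 1.42.0, R 4.3.3), unique reads, a pseudocount of 1 RPKM, other filters, 1.5-fold and, added after seeing the data, centring on 500 genes of like exon length. The other steps ran in Python 3.11.15 (scipy 1.17.1, pandas 2.3.3, matplotlib 3.10.9). Ratios and intervals were tried on simulated data that held counting error only. Such data cannot test for variation between mice or for PCR copies. Transcripts and exons came from GENCODE (GRCm38), whose gene ends were identical for 7 of the 9 genes and differed by at most 14 bases, and promoters from RefSeq.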

Additional observations from a re-analysis of the deposited data

How the results depend on the processing

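No paired analysis was possible because each genotype has 1 library, and for the same reason no replicate could be left out. The count of members past 2-fold was 0, 0 and 1 in αA against N, PαA against αA and PαA against N. It stayed so with TPM, TMM factors, median-of-ratios size factors, unique reads and a pseudocount of 1 RPKM. Taking all genes with reads left the member ratios as they were, so that setting could not change the count. In PαA against N the count became 0 once genes of the same exon length were taken as the base. Past 1.5-fold the counts were 1 in αA against N and 3 in PαA against N. The median log2 ratio of the members in αA against N was -0.116 by RPKM, -0.148 by TPM, 0.045 with TMM factors, 0.056 with size factors and -0.057 when set against genes of like length. In PαA against αA it was -0.179 by RPKM, -0.344 by TPM, -0.111 with TMM factors, -0.107 with size factors and -0.115 relative to length. In PαA against N it was -0.320 by RPKM, -0.517 by TPM, -0.091 with TMM factors, -0.076 with size factors and -0.324 relative to length. With TMM factors, as with size factors, 5 of the 9 members changed sign in αA against N, 3 in PαA against αA and 3 in PαA against N, by construction of the scaling. Unique reads changed no sign. TPM and the pseudocount changed none either, but neither could have done so. All 9 ratios were below 0 by RPKM in each comparison, TPM lowered all ratios of a comparison alike, and a pseudocount keeps the sign. No spread between mice can be given at any depth with 1 library per genotype.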

Other observations

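MHC class II genes, which B cells and dendritic cells hold at high levels, did not move as a block. Of 6 expressed class II genes, 2 were lower past 2-fold in αA than in N, beside 2.81% of all expressed genes. These were *Cd74*, the invariant chain (325, 160 and 140 RPKM in N, αA and PαA, log2 ratio -1.02), and *H2-Oa*, a modulator of peptide exchange (23.2, 9.95 and 14.5 RPKM, -1.22). With TMM factors both ratios came to -0.86 and -1.06. The chains that bind peptide went the other way in PαA against N, with *H2-Aa* at 47.4, 68.2 and 107 RPKM (1.18) and *H2-Ab1* at 30.0, 47.7 and 74.5 RPKM (1.31), where 2.57% of all expressed genes were higher past 2-fold. *Ciita*, the class II counterpart of *Nlrc5*, had 51, 95 and 53 reads and stayed below 1 RPKM in each library. Only 15, 1 and 4 of these reads were unique, so the libraries cannot be ranked for this gene. Beside these values, the 6 B-cell markers summed to 16.0, 12.9 and 14.6 RPKM, the 5 dendritic cell markers to 3.16, 2.41 and 4.05, and the 3 plasma cell markers to 49.0, 66.1 and 108. Their part in the class II values was not tested.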
